A study of Homo sapiens with 20 samples.

Results

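The genes described here encode the machinery that transcribes with RNA polymerase II (Pol II): its subunits, the general transcription factors, the Mediator complex and a few elongation factors. They were taken by name, as every protein-coding gene of GENCODE release 44 (GRCh38) whose symbol starts with POLR2, with GTF2 and a letter, with SUPT, or with MED or TAF and a number. The rule took 110 of 20046 gene models, which carry 109 symbols because POLR2J3 is annotated as 2 models. Going by name, it also took 4 genes of the Pol I selectivity factor (TAF1A, TAF1B, TAF1C and TAF1D), the RNA-binding protein gene TAF15, 4 genes of the TFII-I family, and 17 paralogs of TFIID subunits, 13 of which are TAF11L copies. Partners with other names, such as TBP and CDK8, are described at the end.

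The data are from ChIP-seq (sequencing of DNA that an antibody brings down with a crosslinked protein) in PC-3, an established line of human prostate cancer cells. The antibodies bound RNA polymerase II (POL2 in what follows) or c-Myc (MYC). Each antibody was used in 3 libraries of wild-type cells (WT) and 3 of cells with the kinase gene SLK knocked out (SLK-KO), which the series describes as biological replicates. All SLK-KO libraries carry the name PSD10, so loss of SLK and any other difference of that line cannot be told apart. The study's title names SLK as a co-regulator of c-Myc, and the comparison of genotypes addresses where MYC and POL2 were found with and without it. The series' 20 samples include 6 IgG and 2 Input samples, which were not used here.

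A Pol II promoter is bound by TFIID, whose TAF subunits and TBP read the promoter, and by TFIIA and TFIIB. TFIIF brings the polymerase, TFIIE and TFIIH open the DNA, and Mediator links bound activators to the polymerase through its head, middle and tail modules, with a separable kinase module. DSIF, FACT and SPT6 then travel with the elongating polymerase. c-Myc binds DNA with its partner MAX at the E-box CACGTG and is known to bind many promoters of growth genes.

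Each library came as a list of peak summits with a score, and a gene was counted as having a summit when one lay within 1 kb of any of its transcription start sites (TSS). A rank is the place of that summit in its own list by score, 1 being the best. It is a place in a list and not an amount of binding. The POL2 lists held 17126, 5047 and 9925 summits in WT replicates 1 to 3 and 19017, 15436 and 16298 in SLK-KO, and the MYC lists 365, 201 and 267 in WT and 1218, 1420 and 988 in SLK-KO. Of these, 18 to 36 summits per POL2 list and 5 to 12 per MYC list lay on sequences that the reference used here lacks. They counted for no gene. Sequencing depth is unknown, so a longer list and a deeper or cleaner library cannot be told apart. SLK itself had a POL2 summit in 2 WT and 3 SLK-KO libraries, which does not show whether its product was lost. Of the epithelial markers 4 of 4 had a POL2 summit in some library: KRT8 and KRT18 in all 6, EPCAM in 1 WT and 3 SLK-KO libraries, and CDH1 in WT replicate 1 alone. Of 3 fibroblast markers COL1A1 had one in 4 libraries, and of 3 immune markers none had one.

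The sequences below are those on which the MYC and start-site results turn, each 30 bases read 5′ to 3′ from the hg38 genome. The first 5 hold the CACGTG nearest to a MYC summit, in capitals, at the 5 members that had one within 100 bp, read on the plus strand. They lie at chr6:41921515-41921544 (MED20), chr1:28643171-28643200 (TAF12), chr11:93740906-93740935 (TAF1D), chr18:26226648-26226677 (TAF4B) and chr1:229626212-229626241 (TAF5L).
MED20: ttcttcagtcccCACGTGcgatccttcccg
TAF12: actgccctccgaCACGTGgtggcgatattg
TAF1D: attcttagaggcCACGTGggcagagagcgg
TAF4B: gctgaggcagcgCACGTGtgagcgccgctg
TAF5L: gggtaccggtccCACGTGgtggggacgcgg
The next is the stretch around the middle of the 3 MYC summits at TAF1 (chrX:71366148-71366177, plus strand), with the summit base of SLK-KO replicate 2 in capitals. No CACGTG lay within 100 bp of any of the 3.
TAF1: ttctttctcttaggaTagccggtctttccg
The last is the TATAAA upstream of the GTF2B start site, in capitals, on the gene's own minus strand (chr1:88891579-88891608). Its first base lies 29 bp before the canonical TSS.
GTF2B: gggtgagtcgtcTATAAAaactcatctctg

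A POL2 summit lay at 75 of the 110 members (68.2%) in at least 1 library, against 53.8% of all protein-coding genes. It was there in all 6 libraries at 38 members (34.5%), against 18% of all genes, and in none at 35 (31.8%), against 46.2%. WT replicate 2 had the shortest list. With it left out, 54 members (49.1%, all genes 32.8%) had a summit in every other library. With every list reduced to its 5047 best summits, 27 members (24.5%) had one in all 6, against 13% of all genes. Among genes with a summit in all 6 libraries the median rank was 1926.75 for the 38 members and 2043.5 for all 3615 genes.

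**Figure D1:**
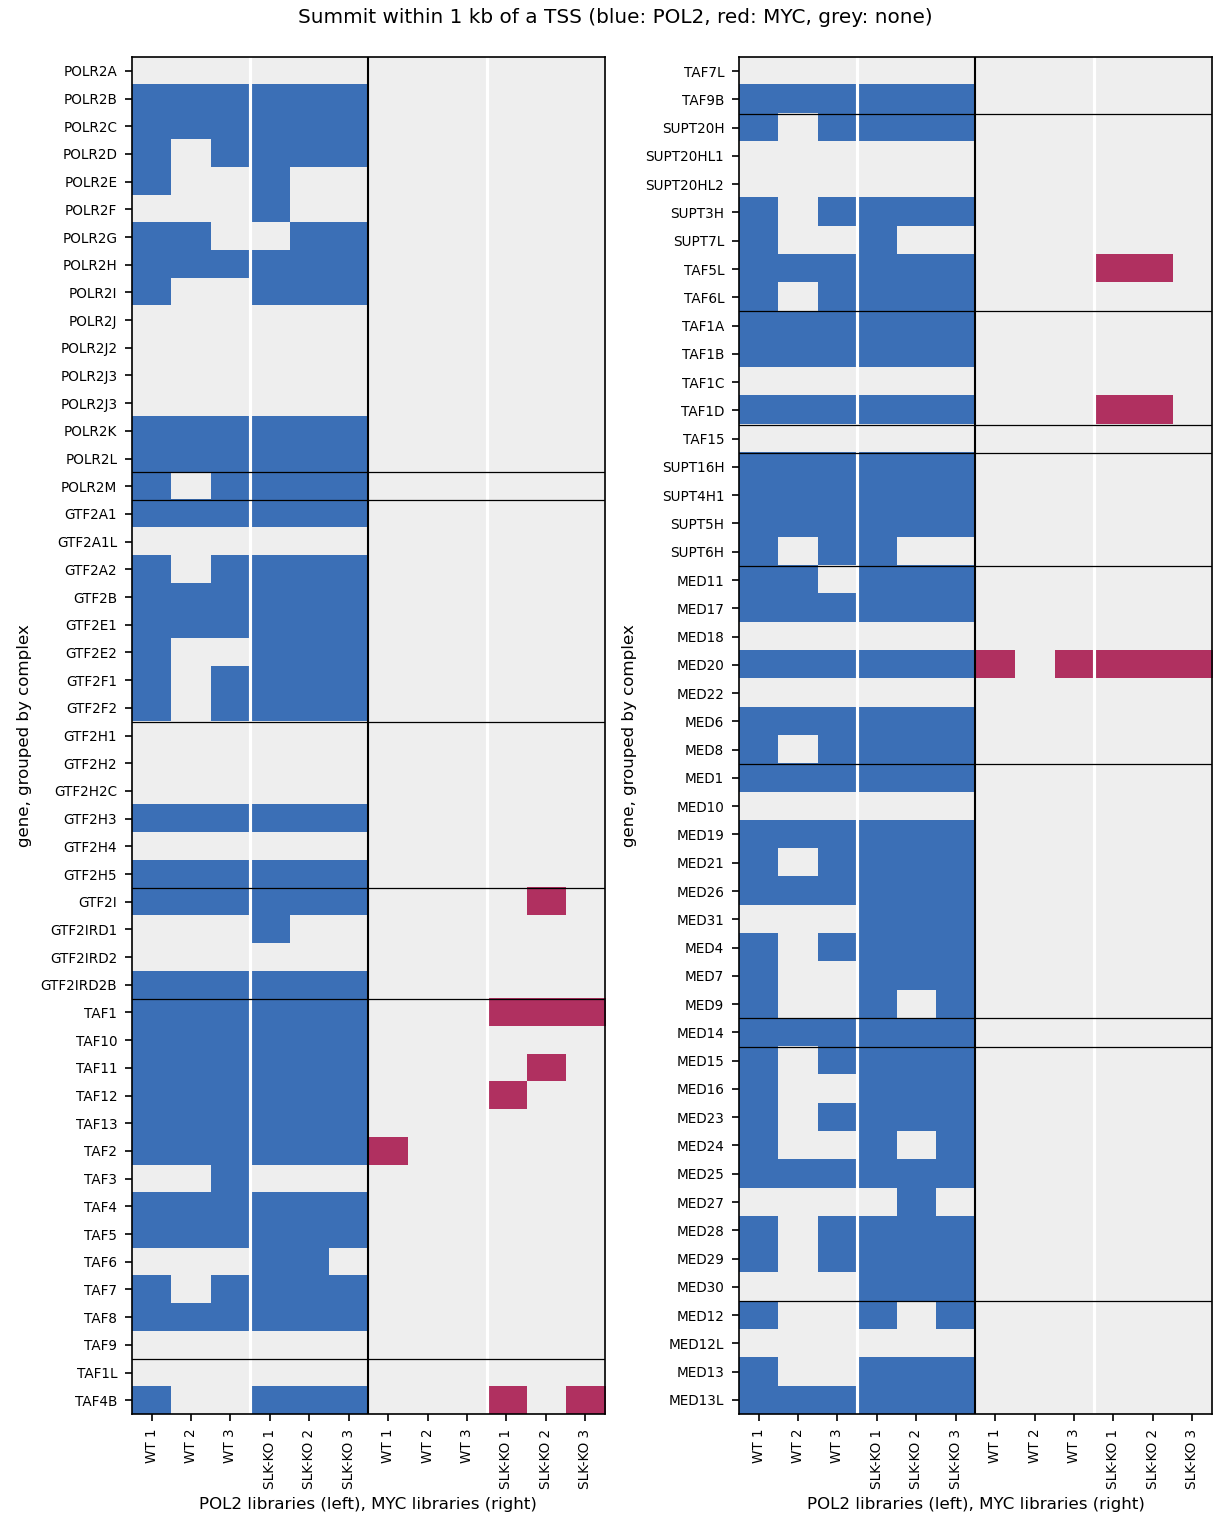
Presence of a summit within 1 kb of a TSS for the members other than the TAF11L copies, one row per gene, grouped by complex over both panels, with the 6 POL2 libraries (blue where listed) left of the 6 MYC libraries (red where listed) in each panel. POL2 is marked at 10, 9 and 11 TFIID genes and 23, 10 and 16 Mediator genes in WT 1 to 3, and MYC is marked at 9 genes.

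Among the Pol II subunits, 10 of 15 gene models had a POL2 summit in some library and 5 in all 6. The 5 were POLR2B, the second largest subunit, POLR2C, an assembly subunit, and POLR2H, POLR2K and POLR2L, small subunits that Pol I and Pol III also contain. POLR2L ranked 281, 300 and 292 in WT and 424, 235 and 252 in SLK-KO. These were the best ranks of any subunit gene in each library, and the genotypes overlapped. POLR2K ranked between 1386 and 2111 in the 6 libraries. The shared subunits POLR2E and POLR2F were in fewer lists: POLR2E ranked 8105 in WT replicate 1 and 16746 in SLK-KO replicate 1, and POLR2F 11437 in SLK-KO replicate 1 alone.

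POLR2A, which encodes the largest, catalytic subunit (ENSG00000181222.19, chromosome 17, 7484366 to 7514616), had no POL2 and no MYC summit within 1 kb in any library. No summit of any of the 12 lists lay between 7242799 and 7558251 on that chromosome, a stretch of 315452 bp that holds the start sites of 31 coding genes. Summits on sequences that the reference used here lacks were not placed on any chromosome. The 4 models of the near-identical copies POLR2J, POLR2J2 and POLR2J3 also had none, inside a stretch of 277855 bp without summits. How the authors' alignment treated reads that fit several copies was not given in the sources used here, so their absence is uncertain.

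Of the 8 genes of TFIIA, TFIIB, TFIIE and TFIIF, 7 had a POL2 summit in some library and 3 in all 6. GTF2A1, the large TFIIA subunit, ranked 198, 206 and 151 in WT and 179, 146 and 148 in SLK-KO, with summits 110 to 129 bp downstream of its TSS. GTF2B, which encodes TFIIB, ranked 669, 353 and 467 in WT and 347, 317 and 333 in SLK-KO, so every SLK-KO rank was better than every WT rank. Its summits lay between 17 bp upstream and 19 bp downstream of a TSS. GTF2B was the only member with TATAAA in the 50 bp before its canonical TSS, 0.909% of members against 4.2% of coding genes with a scored promoter. GTF2E1 (TFIIE) ranked between 2485 and 4335. GTF2A2, GTF2E2, GTF2F1 and GTF2F2 were listed in 4 or 5 libraries, and each was absent from WT replicate 2. The germline TFIIA gene GTF2A1L had none.

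Of the 6 TFIIH genes, GTF2H3 and GTF2H5 had a POL2 summit in all 6 libraries, while GTF2H1, GTF2H2, GTF2H2C and GTF2H4 had none in any. GTF2H3 ranked 1450, 2376 and 2247 in WT and 2424, 736 and 1550 in SLK-KO. GTF2H4 lies on chromosome 6 in a stretch of 5127725 bp (28443437 to 33571162) that held no summit in any list and the start sites of 184 coding genes. Alternate sequences of chromosome 6 held 5, 0 and 1 POL2 summits in WT and 5, 4 and 1 in SLK-KO, and their part in this was not tested. GTF2H2, its near-identical copy GTF2H2C and the TFIID gene TAF9 share a stretch of 2917156 bp on chromosome 5 (69190259 to 72107415) without summits. Of the TFII-I family, GTF2I ranked between 3583 and 6311 and GTF2IRD2B between 1304 and 2039 in the 6 libraries, whereas GTF2IRD2, a near-identical copy of GTF2IRD2B, had none. Since the treatment of reads that fit several copies was not given, the absences at GTF2IRD2, GTF2H2 and GTF2H2C are uncertain too.

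TFIID is the factor that first reads the promoter. A POL2 summit lay at 12 of its 13 genes in some library and at 9 in all 6, which were TAF1, TAF2, TAF4, TAF5, TAF8, TAF10, TAF11, TAF12 and TAF13. The start site with the best ranks of any member was one of TAF12, a histone-fold subunit, at 8, 14 and 9 in WT and 10, 9 and 8 in SLK-KO. Those summits lay 400 to 454 bp upstream of a TAF12 TSS and 91 to 145 bp from the TSS of RNU11, the gene of the U11 spliceosomal RNA, and of a long non-coding RNA. Each library also had a separate summit 40 to 66 bp downstream of the canonical TAF12 TSS, 5684 to 5721 bp from the first. That summit ranked 467, 669 and 1318 in WT and 2170, 1541 and 2228 in SLK-KO, so the ranks of 8 to 14 are those of the site beside RNU11. Its ranks are from full lists of unequal length and were not compared between genotypes. TAF4 ranked 493, 692 and 671 in WT and 852, 1151 and 734 in SLK-KO, 201 to 261 bp upstream of its TSS. TAF2 ranked 1161, 716 and 1146 in WT and 1119, 2148 and 2694 in SLK-KO, and the genotypes overlapped. TAF7, which binds TAF1, ranked 3387 in WT replicate 1 and 2038 in replicate 3, was absent from replicate 2, and ranked 625, 744 and 848 in SLK-KO. TAF3 was listed in 1 library, TAF6 in 2 and TAF9 in none.

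Of the 17 paralogs of TFIID subunits, TAF4B and TAF9B had a POL2 summit in any library, TAF9B in all 6 at ranks 1428 to 5749. The 13 TAF11L copies lie together on chromosome 5 in a stretch of 586004 bp without summits, and TAF1L and TAF7L, which are known from the testis, also had none. Without the paralogs, 73 of 93 members had a POL2 summit in some library and 37 in all 6. Of the SAGA coactivator genes, 5 of 7 were listed and TAF5L in all 6. Of the Pol I selectivity factor, TAF1A, TAF1B and TAF1D were listed in all 6 and TAF1C in none. TAF1D ranked 240, 271 and 302 in WT and 288, 274 and 258 in SLK-KO, 3 to 21 bp from its own TSS and 101 to 136 bp from that of C11orf54.

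**Figure D2:**
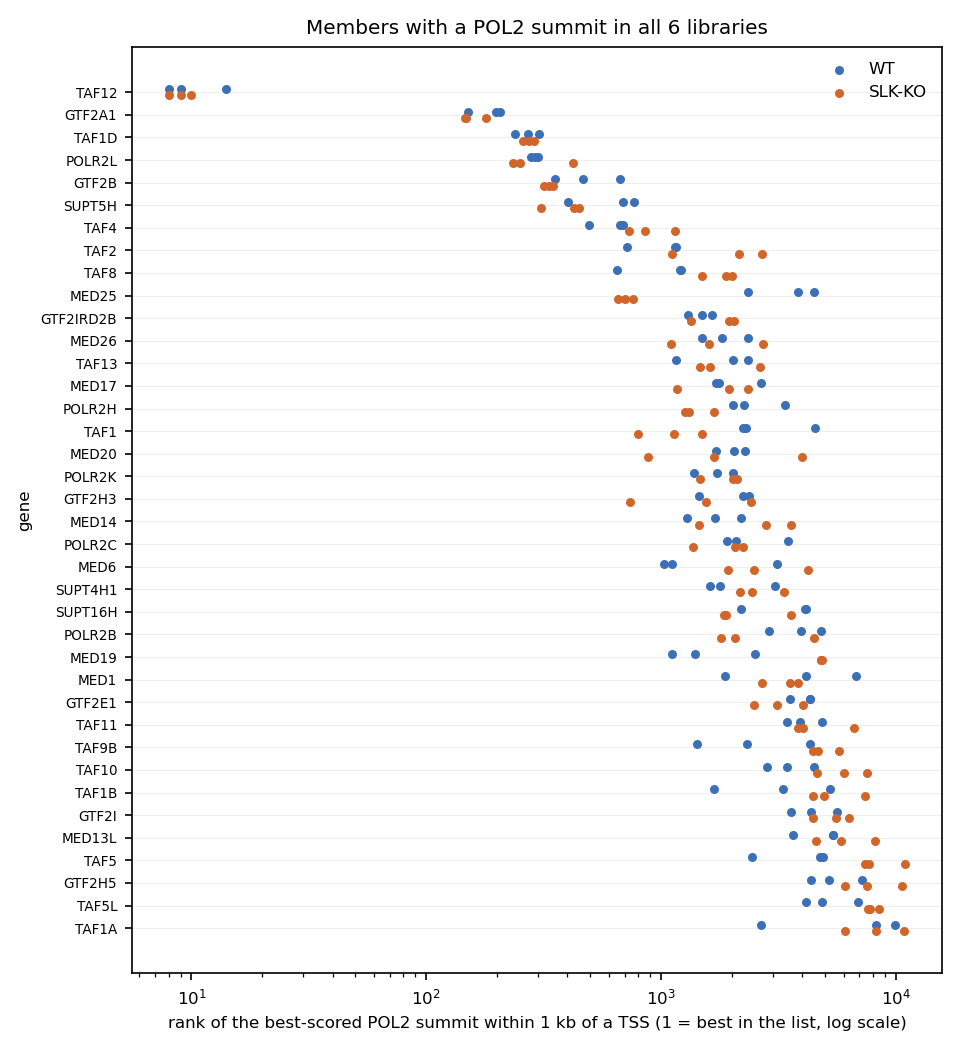
POL2 rank in the full lists (horizontal log axis, 1 is best) of each of the 38 members with a summit in all 6 libraries, ordered by median rank; each point is one library, WT in blue and SLK-KO in orange. TAF12, at the site beside RNU11, lies between 8 and 14, and 5 further genes (GTF2A1, TAF1D, POLR2L, GTF2B and SUPT5H) have no rank beyond 765.

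Mediator is the largest group. A POL2 summit lay at 26 of its 30 genes in some library and at 9 in all 6. Per library 23, 10 and 16 of them were listed in WT and 25, 23 and 25 in SLK-KO, so the count was lowest in the shortest list. The TFIID counts were 10, 9 and 11 of 13 in WT and 11, 11 and 10 in SLK-KO. This difference between the complexes was not tested.

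By module, the head had 3 of 7 genes with a POL2 summit in all 6 libraries (MED6, MED17 and MED20), the middle 3 of 9 (MED1, MED19 and MED26) and the scaffold subunit MED14 was in all 6. All 9 genes of the tail and its border had a summit in some library but only MED25 in all 6, and with WT replicate 2 left out 5 of the 9 were in every list. MED1, which contacts nuclear receptors, ranked 4137, 1867 and 6785 in WT and 3540, 2698 and 3824 in SLK-KO. MED17, the head's central subunit, ranked 2677, 1709 and 1769 in WT and 1175, 2353 and 1945 in SLK-KO. Of the kinase module, MED13L was listed in all 6 at ranks 3661 to 8129. MED12, which activates the module's kinase, ranked 12650 in WT replicate 1, 6630 in SLK-KO replicate 1 and 8097 in SLK-KO replicate 3 and was absent from the others. MED10, MED12L, MED18 and MED22 had no POL2 summit in any library.

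The elongation genes were all listed. SUPT5H, the large DSIF subunit, ranked 401, 765 and 692 in WT and 447, 309 and 428 in SLK-KO, but its summits lay 3 to 13 bp from the TSS of the ribosomal protein gene RPS16 and 236 to 254 bp upstream of a SUPT5H TSS. The canonical SUPT5H TSS had a summit of its own at ranks 3531 and 7485 in WT replicates 1 and 3 and 3883, 4117 and 2781 in SLK-KO. SUPT4H1, the other DSIF subunit, ranked between 1620 and 3351. SUPT16H, the large FACT subunit, ranked 2189, 4099 and 4131 in WT and 1885, 1855 and 3589 in SLK-KO, and the genotypes overlapped. SUPT6H (SPT6) was listed in 3 libraries, with ranks from 6573 to 14712.

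A POL2 summit carries no strand, so at a shared promoter it cannot be assigned to one gene. Another coding TSS lay within 1 kb of every POL2 summit at 23 of the 75 members (30.7%), against 28% of all coding genes with a summit. At MED25, SUPT5H and POLR2F, chosen here after their values were seen, the other TSS was the closer one at every summit. MED29 and PAF1, a neighbour that is itself an elongation factor gene, had the same rank in each of the 5 libraries that listed them, since one summit counted for both. Among the 35 members whose canonical TSS had a summit in all 6 libraries, the median position was 32.5 bp downstream (all genes 35.5 bp) and 23 (65.7%) had their median downstream, against 68.2% of 3270 genes.

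The share of members with a POL2 summit was 61.8%, 36.4% and 50.9% in WT (all genes 47.3%, 19.1% and 35.2%) and 65.5%, 60.0% and 60.9% in SLK-KO (all genes 48.9%, 45.1% and 47.1%). The means were 49.7 ± 12.8% and 62.1 ± 2.92% (SD, n = 3 each), a difference of 12.4 percentage points, and the ranges overlapped. Leaving out WT replicate 1 raised this to 18.5 points, and leaving out WT replicate 2 lowered it to 5.76. Over all coding genes the means were 33.9 ± 14.1% and 47.1 ± 1.92%, a difference of 13.2 points. In lists of equal length the members' means were 37.3 ± 2.41% and 38.8 ± 0.525%, a difference of 1.52 points, and those of all genes differed by 1.73 points. The difference in share was thus of like size in members and in all genes, and it was smaller in lists of equal length. At score minimums of 5 and 10 the members' difference was larger, at 15.2 and 19.7 points. It was not counted over all genes at these minimums.

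**Figure D3:**
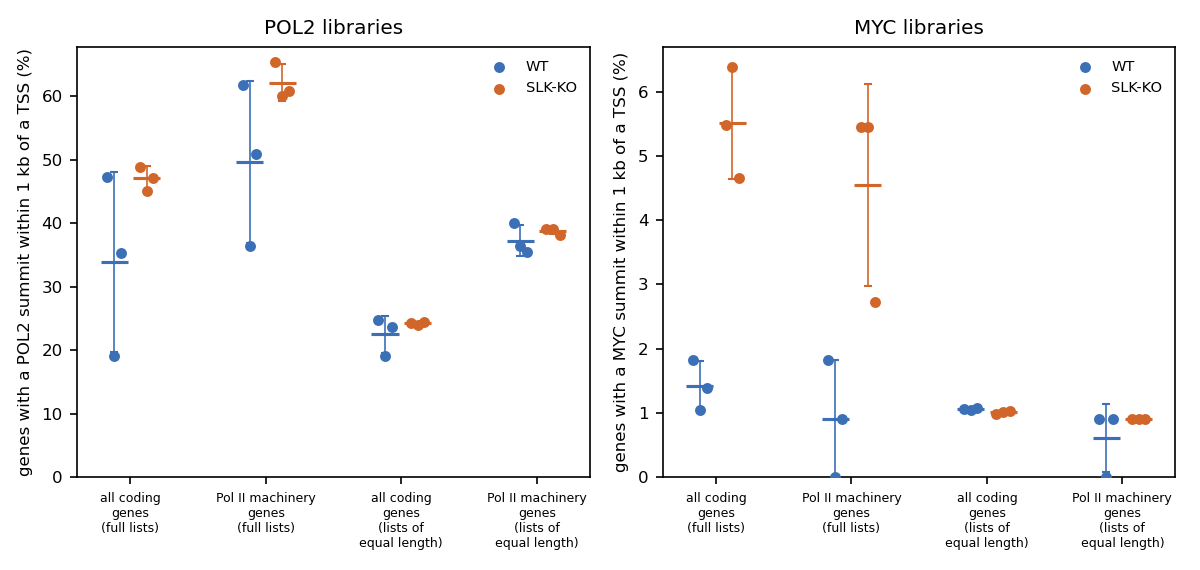
Percent of genes with a summit within 1 kb of a TSS, for POL2 (left) and MYC (right), in all coding genes and in the 110 members, with the full lists and with lists of equal length; points are libraries, bars the mean and SD of 3. The members lie above all genes for POL2 in both kinds of list, and the gap between genotypes in the full lists is small in lists of equal length.

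For each gene an exact permutation test, two-sided, was run on the genotype labels of the libraries. With 3 against 3 libraries the smallest possible p is 0.1, so no gene could reach 0.05, and the calls below say only that the genotypes did not overlap. MED30 and MED31 had a POL2 summit in 3 SLK-KO and 0 WT libraries, 2 of 75 members (2.67%) against 2.87% of the coding genes with a summit (exact permutation p = 0.1 each, adjusted 1 over all genes). No member showed the opposite, as did 0.0186% of genes. MED31, a middle subunit, ranked 4369, 15344 and 9787 in SLK-KO, and MED30, placed at the border of head and tail, ranked 13106, 12959 and 11908. Of these 6 summits, 5 ranked beyond the end of the shortest WT list at 5047. All 6 ranks lie within the length of the WT replicate 1 list, 17126, which had no summit at either gene. Both calls ended in lists of equal length and at score minimums of 5 and 10. In lists of equal length GTF2F2 and GTF2A2 were called instead, 2 of 57 members (3.51%, all genes 2.94%). Without WT replicate 1, 8 members were called (10.7%, all genes 15.8%).

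Ranks were compared in lists of equal length, at the 27 members with a summit in all 6. Every SLK-KO rank was better than every WT rank at 4 of the 27 (14.8%), against 15.7% of 2613 genes, and the reverse held at 3 (11.1%), against 15.2%. These shares were close to the background in both directions. The first count was 8 of 32 without WT replicate 2 (all genes 21.8%), 7 of 27 without SLK-KO replicate 1 (18.9%) and 7 of 28 without SLK-KO replicate 3 (19.3%), and the second was 5 of 28 without SLK-KO replicate 3 (19.8%). In full lists the balance turned, with 4 of 38 members better in SLK-KO (10.5%, all genes 12.6%) and 7 better in WT (18.4%, all genes 18.6%). For each call the exact permutation p was 0.1, and the smallest adjusted p over all genes was 0.324. The median difference in log10 rank, SLK-KO minus WT, was -0.0446 over the 27 members and 0.00519 over all genes.

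The largest difference was at MED25, a tail subunit that activators contact (chromosome 19, 49818282 to 49840383). It ranked 3822, 2357 and 4499 in WT and 656, 762 and 702 in SLK-KO, a 4.87-fold better place in SLK-KO by mean log10 rank (difference -0.69, SD 0.146 in WT and 0.0326 in SLK-KO). The MED25 summits lay 539 to 631 bp upstream of a MED25 TSS and 275 to 367 bp from that of FUZ, and with the window narrowed to 500 bp MED25 was no longer called. TAF1, the largest TFIID subunit (chromosome X, 71366222 to 71532374), ranked 2234, 4531 and 2297 in WT and 1503, 1141 and 797 in SLK-KO, 2.57-fold better in SLK-KO. POLR2H ranked 2026, 3368 and 2253 in WT and 1690, 1262 and 1314 in SLK-KO (1.76-fold), at a TSS other than its canonical one, and GTF2B was the fourth such gene (1.44-fold).

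In the other direction MED19, a middle subunit, ranked 1393, 1118 and 2518 in WT and 4801, 4857 and 4819 in SLK-KO, a 3.06-fold better place in WT (difference 0.49). Those summits lay between 3 and 475 bp from the TSS of the neighbour TMX2 and were nearer to it than to MED19 in 4 of 6 libraries. TAF8 ranked 647, 1223 and 1201 in WT and 1999, 1499 and 1901 in SLK-KO (1.82-fold), with CCND3 starting 232 to 242 bp away on the other side. TAF4 was the last such gene (1.47-fold). The called genes of TFIID (TAF1 against TAF4 and TAF8) and of Mediator (MED25 against MED19) lay on both sides. The shares called were close to the background, so this is not a result about either complex. The summits at MED25, and most of those at MED19, were also nearer to a neighbour's TSS.

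**Figure D4:**
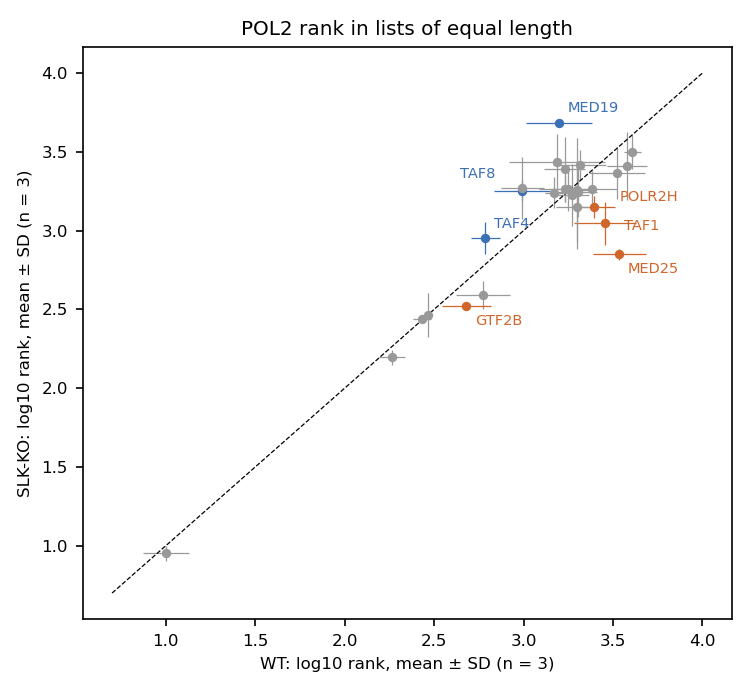
Mean log10 POL2 rank in SLK-KO against WT for the 27 members with a summit in all 6 lists of equal length; bars are SD over 3 libraries, the dashed line is equality, and a lower value is a better rank. Points with non-overlapping genotypes are named, orange for a better rank in SLK-KO (MED25, TAF1, POLR2H, GTF2B) and blue for a better rank in WT (MED19, TAF8, TAF4).

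The position of the POL2 summit differed without overlap at 1 of 35 members. At GTF2A1 it lay 134 ± 4.04 bp downstream of the canonical TSS in WT and 123 ± 5.51 bp in SLK-KO (SD, n = 3 each), a shift of -10.3 bp (exact permutation p = 0.1). Of all genes 6.3% shifted upstream in this sense and 5.02% downstream, with a smallest adjusted p of 0.884 by the same exact permutation test. With 1 library left out, the count in either direction was 6 of 53 without WT replicate 2 (all genes 21.6%), 2 without SLK-KO replicate 1 (19.8%) and 3 without any other (20% to 22.3%). The median range of a member's position over the 6 libraries was 113 bp, against 109 bp over all genes.

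MYC summits were sparse at these genes. One lay within 1 kb of a TSS at 9 of 110 members (8.18%) in at least 1 library, against 9.65% of all coding genes, and at none in all 6, against 0.494%. Per library 2, 0 and 1 members were listed in WT (all genes 1.83%, 1.04% and 1.39%) and 6, 6 and 3 in SLK-KO (all genes 5.48%, 6.38% and 4.65%), a mean of 0.909 ± 0.909% and 4.55 ± 1.57% (SD, n = 3 each). Over all genes the means were 1.42 ± 0.395% and 5.50 ± 0.861%. In lists of equal length, of 201 summits, only MED20 was listed, in 2 WT and 3 SLK-KO libraries, 0.909% of members against 2.39% of all genes. The 9 were TAF1, TAF2, TAF11 and TAF12 of TFIID, its paralog TAF4B, TAF5L of SAGA, TAF1D of the Pol I selectivity factor, GTF2I and MED20. None of the 15 Pol II subunit models had a MYC summit.

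MED20, a head subunit (chromosome 6, 41905354 to 41921139), was listed most often, at ranks 179 and 181 in WT replicates 1 and 3 and 85, 114 and 86 in SLK-KO. The summits lay 400 to 470 bp upstream of a MED20 TSS, in the untranslated or coding sequence of BYSL, a ribosome assembly gene on the other strand, and 5 to 59 bp from its TSS. They were 12 to 82 bp from the CACGTG printed above for MED20, and the POL2 summit of the same-numbered library was 439 to 728 bp away.

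TAF1 was the only member that MYC lists of all 3 SLK-KO and of 0 WT libraries held, 1 of 9 (11.1%) against 9.04% of coding genes with a MYC summit (exact permutation p = 0.1, adjusted 1 over all genes). No member showed the opposite, as was so for 0% of genes. Its ranks were 400, 569 and 327, all beyond the ends of the WT lists of 201 and 267 summits, whereas the rank of 327 in SLK-KO replicate 3 lies within the length of the WT list of 365. The count of such members was 2 of 7 without SLK-KO replicate 2 (all genes 16.6%) and 3 of 9 without SLK-KO replicate 3 (20.6%). The TAF1 call ended in lists of equal length and at a score of at least 10. The TAF1 summits lay 72, 59 and 24 bp upstream of a TAF1 TSS, outside any coding gene. TAF1 was the one member without overlap between genotypes in both its listing in the full MYC lists and its POL2 rank in lists of equal length. How many of all genes share both was not counted. Each call alone was near its background share, and the pair was seen after the values were known.

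The other MYC summits were each in 1 or 2 libraries. TAF4B ranked 1210 and 280 in SLK-KO replicates 1 and 3, and TAF5L 795 and 421 in replicates 1 and 2, next to the start of URB2. TAF1D ranked 441 and 540 in SLK-KO replicates 1 and 2, in its intron, and TAF12 ranked 715 in replicate 1. TAF11 and GTF2I were each in SLK-KO replicate 2 alone, at 821 and 1278. The TAF11 summit lay in an intron of ANKS1A, 674 bp from an ANKS1A TSS and 796 bp from a TAF11 TSS. TAF2 was the only member with a MYC summit in WT and none in SLK-KO, at rank 312 in WT replicate 1. In the promoter window from 250 bp before to 50 bp after the canonical TSS, CACGTG on either strand (the motif is its own reverse complement) was found at 13 of 110 members (11.8%) and 8.76% of all coding genes. It was found at 3 of the 9 members with a MYC summit (33.3%), against 16.5% of all such genes. The members' promoters had a median GC of 59.8% and a median CpG observed-to-expected ratio of 0.872, against 63.7% and 0.775 over all genes.

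The 35 members without a POL2 summit were 15 TFIID paralogs and 20 other gene models. The 20 were GTF2A1L, GTF2H1, GTF2H2, GTF2H2C, GTF2H4, GTF2IRD2, MED10, MED12L, MED18, MED22, POLR2A, POLR2J, POLR2J2, both models of POLR2J3, SUPT20HL1, SUPT20HL2, TAF15, TAF1C and TAF9. The canonical TSS was over 100 kb from any summit at 14 of the 20 (70%) and at 27 of the 35 (77.1%), against 43.4% of 9033 coding genes without a POL2 summit and with summits on either side. These counts are not of separate loci. The TAF11L copies share a stretch, as do GTF2H2, GTF2H2C and TAF9, both models of POLR2J3, and SUPT20HL1 and SUPT20HL2. TAF15 lies in such a stretch of 3256298 bp with 58 coding start sites, MED22 in one of 985830 bp with 23, and GTF2H1 in one of 420656 bp with 12. Why such stretches hold no summit was not tested, nor was the part of summits on sequences that the reference used here lacks.

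POL2 summits inside a gene and beyond 1 kb of every TSS of that same gene were also counted. Start sites of other genes lying inside it were not excluded. Such summits were found at 7, 2 and 2 members in WT (6.36%, 1.82% and 1.82%, all genes 13%, 3.21% and 6.43%) and 8, 11 and 5 in SLK-KO (7.27%, 10% and 4.55%, all genes 15.1%, 11.5% and 12.2%). Across libraries 16 members (14.5%, all genes 21.4%) had one in some library and 0 (all genes 2.33%) had one in all 6. TAF9B had 5, 0 and 2 such summits in WT and 6, 2 and 4 in SLK-KO, and MED15, a tail subunit, 2, 0 and 0 in WT and 3, 3 and 3 in SLK-KO. GTF2A1 had 1 in each library but SLK-KO replicate 3.

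Of 31 partner genes that the naming rule does not take, 28 had a POL2 summit in some library (all genes 53.8%) and 9 in all 6 (all genes 18%). Of the 28, 1 (NELFCD) had it in 3 SLK-KO and 0 WT libraries, against 2.87% of coding genes with a summit. CDK7, KAT2A and NELFE had none. TBP, the TATA-binding subunit of TFIID, ranked 7260 in WT replicate 1 and 14246 and 8254 in SLK-KO replicates 2 and 3. SSRP1, the partner of SUPT16H in FACT, ranked 3849 in WT replicate 1 and 8176, 8984 and 7368 in SLK-KO. CDK8, the kinase of the Mediator module, ranked 14483 in WT replicate 1 and 15168 in SLK-KO replicate 3. CDK9, the kinase that releases paused Pol II, ranked 8240 and 5806 in WT replicates 1 and 3 and 7293, 8224 and 8082 in SLK-KO. MYC summits lay at CCNT1, ELL and RTF1, 3 of the 31, against 9.65% of all coding genes.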

How the data were processed

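The deposited files are 12 lists of 1-bp peak summits, one per POL2 or MYC library. Their score was read as the −log10 q-value that the authors' peak caller gave, because the lowest score of each list lay just above 1.30103. Per the labels, reads of 50 bp were processed with nf-core/chipseq 2.1.0 against GRCh38.p14, and the submitters' processing notes name BWA 0.7.18-r1243 and MACS3 3.0.1. The control used for calling was not given in the sources used here. Scores were used to order summits inside each list.

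For each gene the best-scored summit within 1 kb of any GENCODE 44 TSS was taken. Presence, log10 rank in lists of equal length (5047 for POL2, 201 for MYC) and position were compared between genotypes by exact two-sided permutation (20 relabellings), with Benjamini-Hochberg adjustment over all genes tested. These p-values measure only the spread between these libraries. Shares over members got no test. The scripts were tested on simulated data with seeded genes, which checks the code and not the power to detect a change.

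Members, complexes and lists were chosen with earlier results of these data known. Named were POLR2A, GTF2B, TAF1, MED1, MED12, SUPT5H, SUPT16H, the POLR2J copies, the 8 members with the best median POL2 rank, every member with a MYC summit, those whose genotypes did not overlap, and those without a POL2 summit. Further members are named to list a complex. They, KRT8, KRT18 and the other markers were named after their values were seen. A further marker list is not reported here. Software: samtools 1.23.1 and, under Python 3.11.15, pandas 2.3.3, numpy 2.4.6, matplotlib 3.10.9 and pysam 0.24.0. Alternatives covered windows of 500 bp and 2 kb, score minimums of 5 and 10, canonical TSS, list lengths, leaving out each library, and a replicate block.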

Additional observations from a re-analysis of the deposited data

How the results depend on the processing

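Of 131 recomputed values, 103 stayed within 1.5 times the main count or 1 SD of the main value and 28 moved. Neither share difference changed sign, and counts cannot. With a score of at least 5, members with POL2 in 3 SLK-KO and 0 WT libraries fell from 2 to 0 (0 of 70, all genes 3.29%). Those in all 6 fell from 38 to 25, and the share of all genes in all 6 was not counted at either score minimum. With at least 10, those in all 6 numbered 11, members with MYC in any library 1, and the MYC share difference was 0.909 points. MED23, GTF2A2 and MED13 then replaced MED30 and MED31 (3 of 64 members, 4.69%, all genes 3.91%). MED20 replaced TAF1 and was the only member left with a MYC summit. The same MYC call held at 44 of the 431 coding genes with a MYC summit at that minimum. In lists of equal length, POL2 was in 3 WT and 0 SLK-KO libraries at 1 of 57 members (TAF5, 1.75%, all genes 1.34%). GTF2F2 and GTF2A2 replaced MED30 and MED31 (3.51%, all genes 2.94%), and the POL2 share difference was 1.52 points. Only 1 member had MYC there, and MYC in 3 SLK-KO and 0 WT libraries was found at 0 members (all genes 1.46%). The MYC share difference was 0.303 points. In full lists 7 of 38 members ranked better in every WT library and 4 in every SLK-KO library (all genes 18.6% and 12.6%). With WT replicate 2 left out and lists of 9925, 13 of 49 were better in SLK-KO (26.5%, all genes 19.8%) and 8 in WT (16.3%, all genes 21.1%). Replicate numbers were not used to pair the libraries in the main comparison, and the labels do not say whether same-numbered libraries belong together. Correlations of same-numbered deviations were -0.00438, 1.87e-05 and -0.0122, which cannot show how the libraries were prepared. With a replicate block, where sign flips allow no p under 0.25, 8 of 27 members ranked better in the SLK-KO library of every pair (29.6%, all genes 23.1%), 4 in the WT library (14.8%, all genes 23.7%), and 8 of 35 moved in position (22.9%, all genes 25.8%). Leaving out 1 library at a time gave 2 to 8 members with POL2 in SLK-KO alone (8 without WT replicate 1), with 0 to 0 having it in WT alone, 38 to 54 with POL2 in all (54 without WT replicate 2), and a POL2 share difference of 5.76 to 18.5 points. MYC was in SLK-KO alone at 1 to 3 members (WT alone 0 to 0) and in any library at 7 to 9, with a share difference of 3.18 to 4.55 points. Ranks were better in SLK-KO at 4 to 8 members (8 without WT replicate 2) and in WT at 3 to 5, and positions differed at 2 to 6. Unknown depth limits every absence: a gene not listed was not called at that depth. Absences are also limited by the summits on sequences that the reference used here lacks.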
